A study of Mus musculus with 78 samples.

Results

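NQO1, GCLC, GCLM, GSR, HMOX1, SRXN1, TXNRD1, PRDX1, SQSTM1 and CBR3 are antioxidant and detoxifying genes known as targets of the transcription factor NRF2. They are a list of names from that pathway, with no threshold on a measured value, and the list was drawn up with earlier results of these data known. They make up 10 of the 2755 genes on the probe panel, and all 10 are among the 2205 genes that were tested.

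Liver was taken from male B6C3F1 mice that were 4 weeks old at the start and drank water with 3.5 g/L dichloroacetic acid (DCA) or plain water. RNA from fixed, paraffin-embedded sections was measured with TempO-Seq, which counts pairs of probes joined on a transcript, with 1 library per mouse. The authors deposited 78 libraries and kept 68, and only those 68 are used here unless stated otherwise. S1 mice drank DCA for 10 weeks and were taken at once (S1-10, n = 6) or after 22, 47 or 68 weeks on plain water (S1-32, S1-57 and S1-78, n = 6 each). S2 mice drank it for 32 weeks and were taken at once (S2-32, n = 6) or 46 weeks later (S2-78, n = 4). S3 mice drank it for 57 weeks and were taken at once (S3-57, n = 5) or 21 weeks later (S3-78, n = 4). Direct-78 mice drank it for all 78 weeks (n = 3). Mice on plain water were taken at the same weeks, as Control-10 (n = 4), Control-32, Control-57 and Control-78 (n = 6 each).

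Levels below are CPM, which are counts scaled to a common library total with edgeR's TMM factors, and SE is a standard error. A gene is called higher or lower at an adjusted p of at most 0.05 (edgeR quasi-likelihood test, 2-sided, Benjamini-Hochberg over 2205 genes) with a fold change beyond 1.5. Total counts ran from 541245 to 4285848 per library. The totals of Direct-78 (541245 to 699825) and S3-78 (1154431 to 1936370) all lay below those of Control-78 (2098777 to 4285848). Those of S3-57 (1123317 to 2030701) lay below those of Control-57 (2223516 to 4153377), and those of S1-32 (2979117 to 3914572) lay above those of Control-32 (721372 to 2731045). In these 4 groups depth and treatment cannot be told apart. A gene with no count in a library is bounded by 3 counts, which covers counting error only.

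The label of liver was checked against 10 hepatocyte markers, of which 5 are on the panel. Their summed level was between 14582 and 83953 CPM in each library, TTR was the most abundant, and none of the 5 was at 0 throughout a group. Mouse 68 of Control-10 stood apart, with a sum of 14582 CPM against 50910 to 60998 in the other 3 Control-10 mice, so results that rest on it are given with and without it. The hepatocyte sum had a median of 29273 CPM in Direct-78, 38894 in S3-78 and 50431 in Control-78. Erythroid markers (3 of 6 on the panel, ALAS2 the most abundant) summed to 16.2 to 70.3 CPM in Direct-78 and 13.3 to 187 in S3-78, against 314 to 869 in Control-78, and HBA-A1 and HBB-BS were at 0 in all 3 Direct-78 mice. Macrophage markers (5 of 8 on the panel, LYZ2 the most abundant) had median sums of 351 CPM in Direct-78, 1051 in S3-78 and 702 in Control-78. Exocrine pancreas genes (13 of 16 on the panel) summed to more than 10 times their median over all libraries in 9 libraries, among them mouse 55 of S3-78 and mouse 64 of Direct-78. Their sums were 250.2, 33.5, 86.4 and 82.2 CPM in mice 55, 56, 59 and 60 of S3-78 and 301, 116 and 126 in mice 64, 65 and 66 of Direct-78, against 9.36 to 70.1 in Control-78, so all 3 Direct-78 mice lay above every control, and none of these genes was called in either group. In Direct-78 1 hepatocyte, 1 macrophage and 1 erythroid marker were called lower and, of 3 cholangiocyte markers, 1 higher and 1 lower, and in S3-78 1 erythroid marker was called lower. Fewer cells of a type and less RNA per cell cannot be told apart in these sections, and the part that these markers play in the results was not tested.

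NRF2 is held in the cytoplasm by KEAP1, which passes it on for degradation. Oxidants and electrophiles modify cysteines of KEAP1, and NRF2 then builds up, pairs with small MAF proteins and binds antioxidant response elements beside its target genes. In liver the targets make and recycle glutathione and thioredoxin, reduce quinones and carbonyls and break down haem.

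Each treated group was compared with its age-matched controls, and which groups had the most calls changed with the fit. In S3-78 2 of 10 were called higher and 4 lower, where 5.85% and 7.48% of all tested genes were called. In Direct-78 2 were called higher and 4 lower, against 5.71% and 18.7% of all genes. The groups use the same 6 Control-78 mice, as do S1-78 and S2-78. The median log2 fold change of the 10 genes was -0.89 in S3-78 and -0.53 in Direct-78, beside 0.07 and -0.33 over all genes. In both comparisons NQO1 and CBR3 were the genes called higher, and GCLM, SRXN1, PRDX1 and SQSTM1 those called lower. With only the compared groups fitted, CBR3, NQO1, PRDX1 and SQSTM1 stayed called in S3-78 and PRDX1 and SQSTM1 in Direct-78, and without the libraries with pancreas genes PRDX1, SQSTM1 and CBR3 stayed in S3-78 and PRDX1 and SQSTM1 in Direct-78. With the log2 of total counts as a covariate PRDX1 stayed in S3-78 and edgeR called 0 in Direct-78, where without the covariate 6 had an unadjusted p under 0.05 and DESeq2 called 5.

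The other groups had few calls. In S1-10 0 were called higher and 1 lower (1.09% and 4.40% of all genes), and without mouse 68 no member and no other gene was called in edgeR, with 1 member at an unadjusted p under 0.05. With only the compared groups fitted, 3 were called in S1-10 (CBR3, SQSTM1 and SRXN1), and the CBR3 call stayed with the covariate. In S1-32 0 were called higher and 1 lower (11.9% and 17.2%), in S1-78 0 and 1 (0.998% and 0.816%), and in S3-57 0 and 1 (2.86% and 3.54%). In S1-10, S1-32, S1-78 and S3-57, in that order, 3, 2, 4 and 3 members had an unadjusted p under 0.05 and DESeq2 called 2, 2, 1 and 1. With edgeR 0 members were called in S1-57 (0.363% of all genes higher and 1.22% lower), where 3 had an unadjusted p under 0.05 and DESeq2 called 0. In S2-32 0 were called by edgeR (3.45% and 7.21%), 2 had an unadjusted p under 0.05 and DESeq2 called 0. For S2-78 0 were called by edgeR (0.816% and 0.816%), 4 had an unadjusted p under 0.05 and DESeq2 called 1. The median log2 fold change of the 10 genes in these 7 groups lay between -0.47 in S1-57 and 0.28 in S1-32, beside 0.07 and 0.05 over all genes.

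Some comparisons shift with the scaling. With DESeq2's median-ratio factors (RLE) in place of TMM, the all-gene median of log2 fold changes moved from -0.33 to 0.07 in Direct-78, from 0.07 to 0.27 in S3-78 and from 0.06 to 0.27 in S2-78. It moved from 0.05 to -0.07 in S1-32, from 0.05 to -0.06 in S2-32 and from 0.07 to 0.18 in S1-57. The share of called genes that were higher went from 23.4% to 46.3% in Direct-78, from 43.9% to 55.7% in S3-78 and from 50% to 72.1% in S2-78. It went from 22.9% to 39.3% in S1-57 and from 44.7% to 57.3% in S3-57. Relative to the median of all genes with TMM, the Direct-78 changes were -2.37 for SQSTM1, -1.01 for PRDX1, -0.59 for GCLM, -3.34 for SRXN1, 2.61 for NQO1 and 2.48 for CBR3. The S3-78 changes on that scale were -2.05, -1.54, -1.10, -2.84, 2.46 and 2.72 in the same order of genes.

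**Figure D1:**
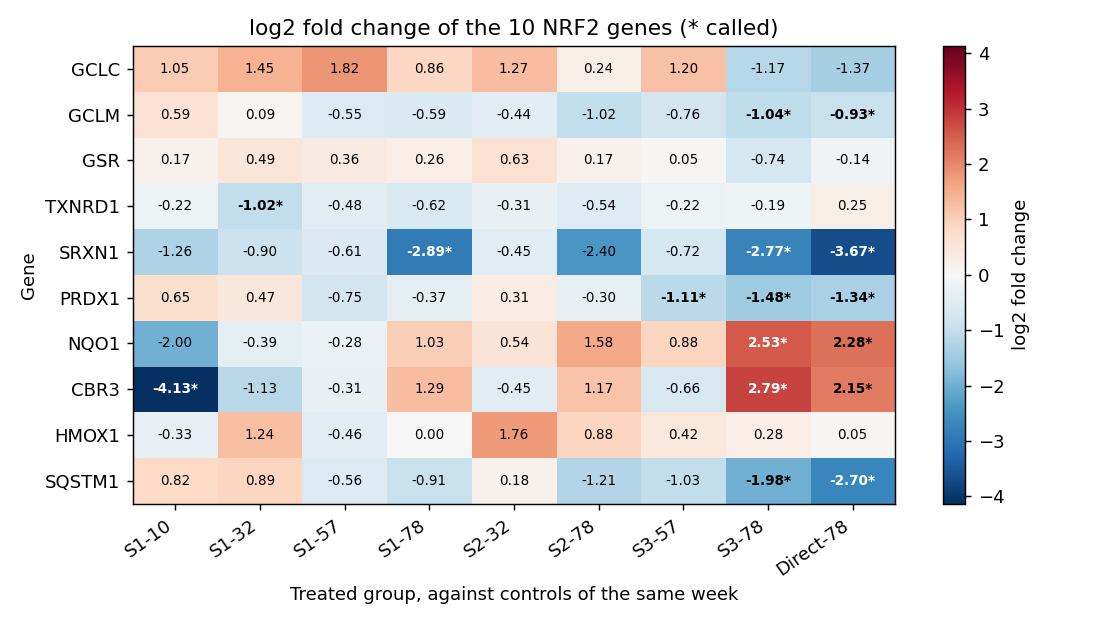
Log2 fold change of the 10 genes (vertical) in 9 treated groups against age-matched controls (horizontal), with a mark where a gene was called. In the fit shown, S3-78 and Direct-78 have 6 calls each.

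Promoters are shown because several of these genes were called in the same groups and antioxidant response elements share the letters TGACNNNGC. The windows come from RefSeq on GRCm38.p6 and run from 250 bases before to 50 after a start. Both strands were searched for TGACNNNGC, which 4071 of 32851 promoters in that table hold (12.4%). Of the 10 genes, 7 were matched, with 9 promoters, and GCLC, GSR and HMOX1 were not matched in the table used here. The letters were found in the promoters of GCLM (chr3:122245413-122245441, 134 bases before the start), PRDX1 (chr4:116685456-116685484, 133 before), TXNRD1 (chr10:82859104-82859132, 92 before, at 1 of 3 starts) and SRXN1 (chr2:152105542-152105570, 28 after). Each is given 5′ to 3′ on the plus strand, which is the strand of the gene, with the match in capitals as its reverse complement.
GCLM: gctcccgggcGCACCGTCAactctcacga
PRDX1: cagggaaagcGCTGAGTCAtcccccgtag
TXNRD1: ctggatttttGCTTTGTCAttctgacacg
SRXN1: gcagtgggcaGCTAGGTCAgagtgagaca
The letters are not in the windows of NQO1, SQSTM1 and CBR3.

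GCLC and GCLM are the catalytic and modifier subunits of glutamate-cysteine ligase, which makes the first bond of glutathione, and GSR returns oxidised glutathione to its reduced form. GCLM (ENSMUSG00000028124, chromosome 3 from 122245557 to 122270732 of GRCm38) had 94.5, 220, 88.5 and 110.4 CPM in mice 55, 56, 59 and 60 of S3-78. In Direct-78 it had 169, 108 and 139 CPM in mice 64, 65 and 66, and in Control-78 the lowest, median and highest were 212, 239 and 365. All 3 Direct-78 mice and 3 of 4 S3-78 mice were below every control, and mouse 56 lay inside the control range. GCLM had log2 fold changes of -1.04 (SE 0.31, adjusted p = 0.0190) in S3-78 and -0.93 (SE 0.35, adjusted p = 0.0437) in Direct-78. The S3-78 call was lost without mouse 55 (-0.92, adjusted p = 0.0890), mouse 59 (-0.90, 0.0854) or mouse 60 (-0.97, 0.0554). The Direct-78 call was lost with RLE factors (-0.51, adjusted p = 0.214), with DESeq2 (0.196), and without Direct-78 mouse 64 (-1.09, 0.0716), 65 (-0.59, 0.240) or 66 (-0.90, 0.117). It was also lost without Control-78 mouse 85 (-0.72, 0.129), 86 (-0.76, 0.0864), 87 (-0.95, 0.0509) or 90 (-0.96, 0.0539), and with counts thinned to the lowest total, a step added after seeing the data (-0.70, 0.120). The covariate for total count gave -0.78 (0.159) in S3-78 and -0.37 (0.764) in Direct-78.

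In S2-78 GCLM had 109, 140.1, 125 and 144 CPM in mice 43, 44, 45 and 47. All 4 lay below every Control-78 mouse, and the change of -1.02 had an adjusted p of 0.0671, so it was not called. The share of all genes with such a separation was not computed for S2-78. In S1-10 the values were 209, 254 and 288 CPM at the lowest, median and highest, against 132, 180.1, 178 and 182 in mice 68, 69, 71 and 72 of Control-10. Here all 6 treated mice lay above every control, with a log2 fold change of 0.59 (SE 0.31) that was not called (adjusted p = 0.265). The order of the 13 group medians of GCLM began with S1-10 (254) and ended with S3-78 (102), and the ranges of all neighbours in it met.

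GCLC (ENSMUSG00000032350, chromosome 9 from 77754535 to 77794485) was called in 0 of 9 groups by edgeR. Its smallest adjusted p was 0.176, in S1-32, where the log2 fold change was 1.45 (SE 0.83) and 6 of 6 mice lay above the control median. Its group medians ran from 138 CPM in S1-10 to 9.46 in Direct-78. Within Control-32 alone it ran from 2.03 to 136 CPM, and it was at 0 in 1 mouse each of S3-57, Control-78, S2-78 and Direct-78.

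GSR (ENSMUSG00000031584, chromosome 8 from 33652523 to 33698163) was called in none of the 9 groups either. In S3-78 it had 142, 226, 193 and 149 CPM, against 244, 307 and 338 at the lowest, median and highest of Control-78. Every S3-78 mouse lay below every control, and the change of -0.74 (SE 0.30) had an adjusted p of 0.0912. In Direct-78 the range was 252 to 279 CPM, inside that of the controls, with a log2 fold change of -0.14 (adjusted p = 0.767) that was 0.26 with RLE factors.

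TXNRD1 reduces thioredoxin, PRDX1 removes hydrogen peroxide with thioredoxin as its reductant, and SRXN1 repairs peroxiredoxins that have been overoxidised. PRDX1 (ENSMUSG00000028691, chromosome 4 from 116685544 to 116700822) had 1542, 1863, 956 and 1211 CPM in mice 55, 56, 59 and 60 of S3-78. In Direct-78 it had 1525, 1880 and 1181 CPM in mice 64, 65 and 66, and in Control-78 the lowest, median and highest were 3318, 3856 and 4500. No value of either group reached the lowest control. Beside it, every S3-78 mouse lay below every control for 3 of the 10 genes (GSR, PRDX1 and SQSTM1) and above for 1 (NQO1), against 7.85% and 5.08% of all genes, and in Direct-78 below for 3 (GCLM, PRDX1 and SQSTM1) and above for 0, against 13.9% and 5.03%. PRDX1 had log2 fold changes of -1.48 (SE 0.32, adjusted p = 0.00165) in S3-78 and -1.34 (SE 0.35, adjusted p = 0.00601) in Direct-78. Both calls were kept in every fit without 1 library, with highest adjusted p of 0.0104 and 0.0499. With the log2 of total counts as a covariate the S3-78 change was -1.10 (adjusted p = 0.0461), and the Direct-78 change was -0.55 (0.624), which is not called.

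PRDX1 was also called lower at the end of 57 weeks of DCA. Mice 49, 50, 51, 53 and 54 of S3-57 had 1466, 2035, 2034, 1641 and 1486 CPM, against 2747, 3588 and 4751 at the lowest, median and highest of Control-57. The groups did not overlap, a separation whose share over all genes was not computed here, where 3.54% of all genes were called lower. The log2 fold change was -1.11 (SE 0.29, adjusted p = 0.0126). The call was lost with all 78 libraries (adjusted p = 0.188) and with the covariate (-0.80, 0.0843). Over the 9 alternatives other than the omission of each library the change lay between -1.38 and -0.80. Median marker sums in S3-57 and Control-57 were 83.8 and 129.7 CPM for endothelial cells, 152 and 406 for erythroid cells, 533 and 1281 for macrophages, 94.7 and 185 for stellate cells and fibroblasts and 39983 and 56262 for hepatocytes. None of these markers was called, and their part in the result was not tested. In S1-57, after 10 weeks of DCA, PRDX1 had 838, 2015 and 3545 CPM at the lowest, median and highest. All 6 mice lay below the Control-57 median, and the change of -0.75 (SE 0.27, unadjusted p = 0.00807) was not called (adjusted p = 0.160). Macrophage markers there had a median sum of 554 against 1281 CPM, with 1 of 5 called lower. In S1-10 all 6 mice lay the other way, at 3089, 3805 and 4452 CPM (lowest, median, highest) above the 1918, 2653, 2594 and 2413 of Control-10, with a change of 0.65 (SE 0.31) that was not called (adjusted p = 0.220). The group medians of PRDX1 began with S1-32 (4066) and ended with S3-78 (1376), and the ranges of all neighbours met.

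**Figure D2:**
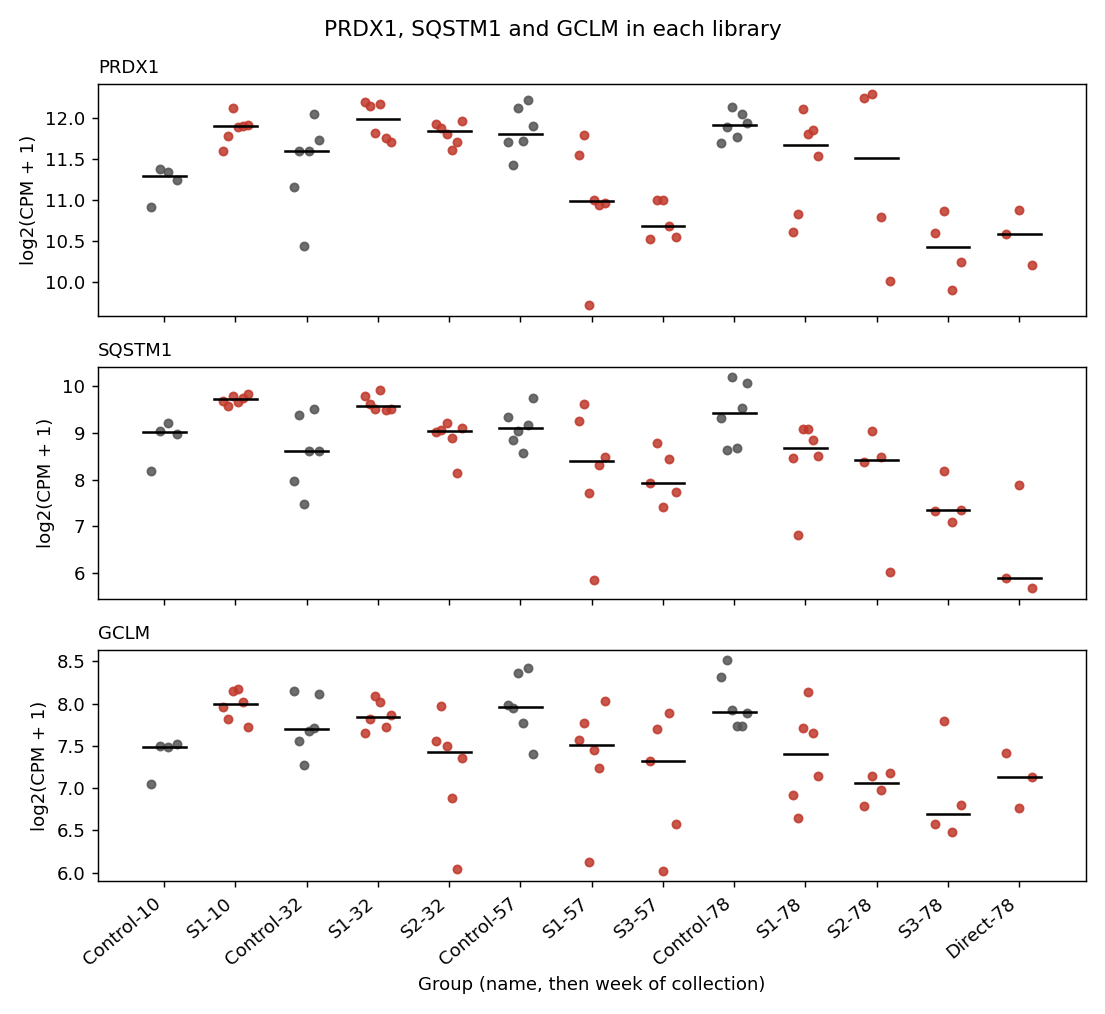
Levels of PRDX1, SQSTM1 and GCLM in each mouse (points, as log2 of CPM plus 1; controls grey, treated red) by group, with the group median as a bar. In S3-78 and Direct-78 every PRDX1 and SQSTM1 point lies below all 6 Control-78 points.

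SRXN1 (ENSMUSG00000032802, chromosome 2 from 152105516 to 152111376) was called lower in S1-78, S3-78 and Direct-78, and the 3 calls share the Control-78 mice. Those controls had 116, 72.6, 578, 64.5, 119 and 2911 CPM in mice 85 to 90. S3-78 mice had 58.2, 88.6, 143 and 87.6 CPM, Direct-78 mice 25.7, 91.8 and 35.1, and S1-78 mice 42.2, 80.95 and 155 at the lowest, median and highest. Each treated range overlapped that of the controls, and mouse 90 was far above all others. SRXN1 had log2 fold changes of -2.89 (adjusted p = 0.00625) in S1-78, -2.77 (0.0112) in S3-78 and -3.67 (0.00438) in Direct-78. Without mouse 90 it was -1.14 (0.353), -1.01 (0.311) and -1.91 (0.0594), none of them called. The covariate kept the S1-78 call (-2.76, 0.0149) and ended those in S3-78 (-2.42, 0.110) and Direct-78 (-2.99, 0.280). In fits of only the compared groups all 3 calls were lost (adjusted p = 0.191 in S1-78). In S2-78, with the same controls, SRXN1 had a log2 fold change of -2.40 that edgeR did not call (adjusted p = 0.0773; 0.0336 with DESeq2). The S2-78 median was 135.9 CPM against 117.4 in Control-78, and 3 of 4 mice lay above the control median. The S1-78 change lay between -2.93 and -2.71 over the 9 alternatives other than the omission of each library. The S3-78 call was also lost without mouse 55 (-2.60, 0.0545). In S1-78 against Control-78 stellate and fibroblast markers (5 of 7 on the panel, COL1A1 the most abundant) had median sums of 438 against 80.5 CPM, with 3 called higher. Exocrine pancreas genes had 59.65 against 19.5 CPM, with 4 of 8 tested called higher. Their sum was 30812 CPM in mouse 36 of S1-78, against 230.4, 92.65, 3.049, 12.4 and 26.65 CPM in mice 31 to 35. Cholangiocyte markers summed to 410.6 CPM in mouse 90 of Control-78, against 85.35, 25.03, 67, 20.88 and 50.63 CPM in mice 85 to 89. The part of these sets in the SRXN1 result was not tested.

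TXNRD1 (ENSMUSG00000020250, chromosome 10 from 82833951 to 82897712) was called in S1-32 only among the 9 groups. It had 82.02, 127 and 146 CPM at the lowest, median and highest of S1-32 against 155, 246 and 375 in Control-32. The groups did not overlap, a separation whose share over all genes was not computed here, where 17.2% of all genes were called lower. The log2 fold change was -1.02 (SE 0.28, adjusted p = 0.00561). All 12 fits without 1 library kept the call, with a highest adjusted p of 0.0167, and the covariate for total count ended it (-0.64, 0.251). Between S1-32 and Control-32 the median sum of macrophage markers was 1160 against 582 CPM (2 of 5 called higher, LYZ2 the most abundant). That of 4 endothelial markers was 322 against 167 CPM (1 called higher, KDR the most abundant), and that of 5 hepatocyte markers 50659 against 41972 CPM (1 called higher). Erythroid markers had 222.5 against 413.9 CPM and cholangiocyte markers 101 against 58.32 CPM, with 0 of 3 called in each set. Exocrine pancreas genes had 10.37 against 44.31 CPM, with 1 of 8 called higher. Mouse 19 of S1-32 had a pancreas sum of 3131 CPM and the lowest TXNRD1 value of that group. The part of these sets in the result was not tested. In S3-78 and Direct-78 the log2 fold changes of TXNRD1 were -0.19 (adjusted p = 0.726) and 0.25 (0.595). The Direct-78 change was 0.66 with RLE factors, and DESeq2 gave an adjusted p of 0.116. There 2 of 3 mice lay above every control.

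NQO1 reduces quinones in a single step of 2 electrons, and CBR3 reduces carbonyl groups with NADPH. NQO1 (ENSMUSG00000003849, chromosome 8 from 107388225 to 107403206) had 106, 32.7, 15.9 and 28.9 CPM in mice 55, 56, 59 and 60 of S3-78. In Direct-78 it had 36.6 and 79.6 CPM in mice 64 and 65 and no count in mouse 66, where 3 counts would be 4.05 CPM, and in Control-78 the lowest, median and highest were 3.29, 9.42 and 11.9. All 4 S3-78 mice and 2 of 3 Direct-78 mice lay above every control. NQO1 had log2 fold changes of 2.53 (SE 0.73, adjusted p = 0.0148) in S3-78 and 2.28 (SE 0.78, adjusted p = 0.0289) in Direct-78. The S3-78 call was lost without mouse 55 (1.70, adjusted p = 0.163). The Direct-78 call was lost without Direct-78 mouse 64 (2.32, 0.0703) or 65 (1.43, 0.213) and Control-78 mouse 89 (2.15, 0.0548) or 90 (2.13, 0.0594), and without mouse 66 the change was 2.89 (0.0124). With the covariate the changes were 1.98 (0.156) in S3-78 and 1.13 (0.720) in Direct-78.

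CBR3 (ENSMUSG00000022947, chromosome 16 from 93683215 to 93690990) was called higher in the same comparisons. Its values were 13.3, 3.59, 87.97 and 10.7 CPM in mice 55, 56, 59 and 60 of S3-78 and 17.8, 32.4 and 5.41 CPM in mice 64, 65 and 66 of Direct-78. The value of mouse 66 is close to the level of 3 counts in that library. Control-78 had 1.67, 3.78 and 7.59 CPM at the lowest, median and highest. In S3-78 3 of 4 mice and in Direct-78 2 of 3 lay above every control. CBR3 had log2 fold changes of 2.79 (SE 0.75, adjusted p = 0.00884) in S3-78 and 2.15 (SE 0.80, adjusted p = 0.0429) in Direct-78. Without mouse 59 the S3-78 value was 1.13 (adjusted p = 0.379). Markers of lymphocytes and other white cells summed to 163.2 CPM in mouse 59, against 38.3, 60.28 and 38.84 in mice 55, 56 and 60. Cholangiocyte markers summed to 172.8 CPM in mouse 59, against 73.03, 45.51 and 20.56 in the same 3 mice. The part of these markers in the CBR3 value was not tested. The Direct-78 call was lost without Direct-78 mouse 64 (2.18, 0.0997) or 65 (1.70, 0.161), and without Control-78 mouse 85 (2.28, 0.0597), 86 (2.06, 0.0599), 87 (2.11, 0.0668), 89 (2.18, 0.0613) or 90 (2.10, 0.0705), and with thinned counts (2.49, 0.0584). With the covariate the changes were 1.70 (0.285) and 0.18 (0.969), neither of them called.

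In S1-10 CBR3 was called lower. It had 1.81, 3.75 and 7.49 CPM at the lowest, median and highest of S1-10, against 269.6, 11.6, 15.5 and 12.5 in mice 68, 69, 71 and 72 of Control-10. The lowest S1-10 value is at about the level of 3 counts. Every S1-10 mouse lay below every control, which held for 2 of the 10 genes (SRXN1 and CBR3) against 5.80% of all genes, and 3 lay wholly above (GCLM, PRDX1 and SQSTM1) against 9.07%. The log2 fold change was -4.13 (SE 0.78, adjusted p = 0.00138), and without mouse 68 it was -1.59 (0.454). NQO1 in S1-10 was not called (adjusted p = 0.0876), and without mouse 68 it was at -0.35 (0.912). Stellate and fibroblast markers had median sums of 139 CPM in S1-10 and 361 in Control-10, with 1 of 5 called lower. Erythroid markers (3 of 6 on the panel) summed to 282 to 401 CPM in S1-10 and 43.1 to 202 in Control-10, so every treated mouse lay above every control, with 0 of 3 called. The part of either set in the S1-10 values of CBR3, NQO1, SRXN1, GCLM, PRDX1 and SQSTM1 was not tested.

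**Figure D3:**
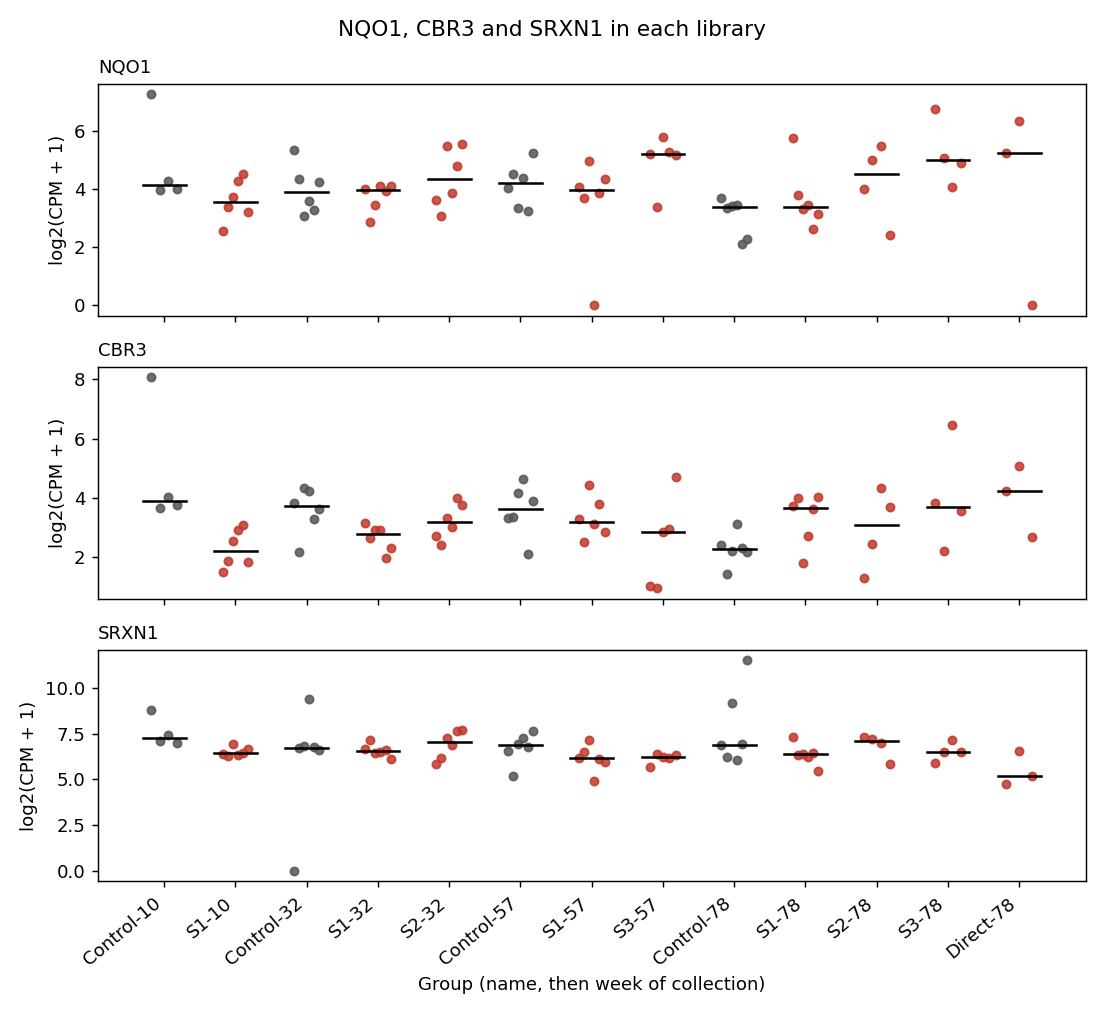
Levels of NQO1, CBR3 and SRXN1 in each mouse (points, as log2 of CPM plus 1; controls grey, treated red) by group, with the group median as a bar. Mouse 68 of Control-10 has the highest NQO1 and CBR3 values, 153 and 269.6 CPM, and mouse 90 of Control-78 the highest SRXN1 value, 2911 CPM.

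HMOX1, which opens the haem ring, was called in 0 of 9 groups by edgeR (ENSMUSG00000005413, chromosome 8 from 75093621 to 75100589). Its smallest adjusted p was 0.124, in S2-32, where it had 5.86, 16.8 and 30.3 CPM at the lowest, median and highest against 0, 5.17 and 12.5 in Control-32. All 6 S2-32 mice lay above the control median and 4 above every control, with a log2 fold change of 1.76 (SE 0.77). In S3-78 and Direct-78 the log2 fold changes of HMOX1 were 0.28 (adjusted p = 0.852) and 0.05 (0.971).

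SQSTM1 (p62) is a receptor for selective autophagy that also binds KEAP1 (ENSMUSG00000015837, chromosome 11 from 50199366 to 50210827). It had 159.8, 291, 135 and 162 CPM in mice 55, 56, 59 and 60 of S3-78. Direct-78 mice 64, 65 and 66 had 58.3, 233.5 and 50 CPM, and in Control-78 the lowest, median and highest were 395, 687 and 1173. Neither treated group overlapped the controls. SQSTM1 had log2 fold changes of -1.98 (SE 0.47, adjusted p = 0.00363) in S3-78 and -2.70 (SE 0.56, adjusted p = 0.000697) in Direct-78. Every fit without 1 library kept both calls, and without mouse 65 the Direct-78 change was -3.56 (7.93e-05). With the log2 of total counts as a covariate the values were -0.69 (adjusted p = 0.369) and 0.01 (0.996), so the Direct-78 change turned in sign. With thinned counts they were -1.93 (0.00288) and -2.59 (0.000726).

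SQSTM1 had its highest group median in S1-10, with 766, 843 and 918 CPM at the lowest, median and highest, against 290.2, 529, 593 and 502 in mice 68, 69, 71 and 72 of Control-10. All 6 treated mice lay above every control, and the change of 0.82 (SE 0.45) was not called (adjusted p = 0.286). The order of group medians ended with Direct-78 (58.3), and the ranges of all neighbours met.

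The changes in Direct-78 and S1-10, the end of the longest and of the shortest exposure, were compared by the difference of their log2 fold changes. Of the 10 genes 2 were called higher and 3 lower for this difference, against 13.4% and 20.4% of all genes, and with RLE factors the share of calls that were higher went from 39.7% to 56.4% while the median over all genes moved from -0.35 to 0.14. PRDX1 differed by -1.99 (SE 0.47, adjusted p = 0.00135) and SQSTM1 by -3.52 (SE 0.71, adjusted p = 0.000258). GCLM differed by -1.51 (adjusted p = 0.0103), by -1.03 with RLE factors (0.0506) and by -1.14 without mouse 65 (0.0574). Without mouse 65 SQSTM1 differed by -4.35 (2.72e-05). NQO1 differed by 4.27 (adjusted p = 0.00209), by 2.63 without mouse 68 (0.0604), by 3.57 without mouse 65 (0.0114) and by 4.98 without mouse 66 (0.000523). CBR3 differed by 6.28 (adjusted p = 6.14e-05) and by 3.74 without mouse 68 (0.00729). Without mouse 68 PRDX1 differed by -1.90 (0.00471) and SQSTM1 by -3.34 (0.00115). With the log2 of total counts as a covariate 0 of the 10 were called by edgeR.

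**Figure D4:**
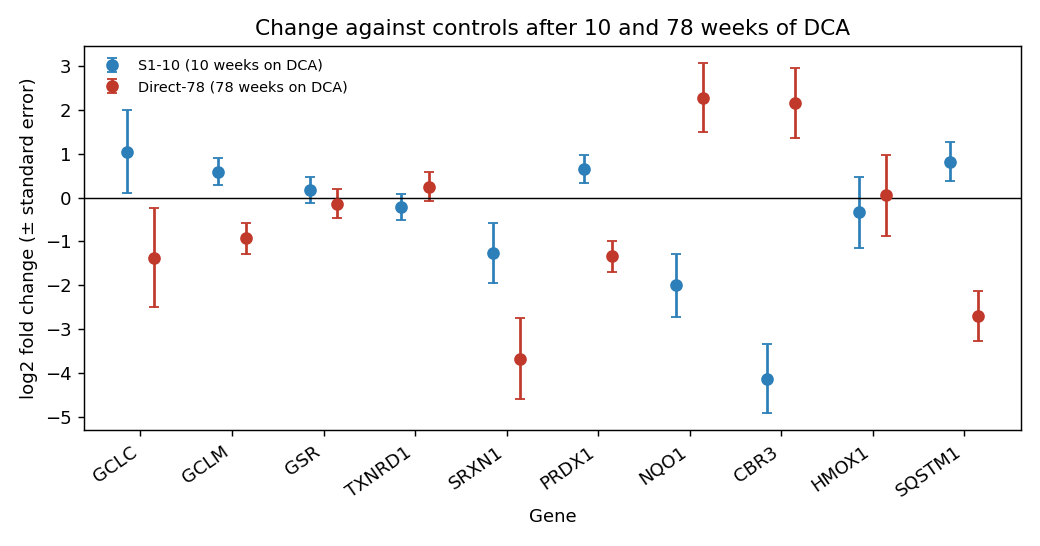
Log2 fold change of the 10 genes in S1-10 (blue) and in Direct-78 (red), each against its age-matched controls, with SE as bars. GCLM, PRDX1 and SQSTM1 are positive in S1-10 and negative in Direct-78, and NQO1 and CBR3 are negative in S1-10 and positive in Direct-78, with S1-10 values of -0.35 and -1.59 without mouse 68.

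Groups of the same age were also compared directly. Between Direct-78 and S3-78 edgeR called 0 of the 10 genes, where 0.363% of all genes were higher and 4.67% lower, 0 members had an unadjusted p under 0.05 and DESeq2 called 0. The share of calls that were higher there went from 7.21% to 18.9% with RLE factors, and the median of all genes from -0.27 to -0.08. Between S2-32 and S1-32 edgeR called 0 members (2.13% and 1.41% of all genes), 1 had an unadjusted p under 0.05 and DESeq2 called 0. With only the compared groups fitted some members were called there, as given in the last section. SQSTM1 had 282, 525 and 591 CPM at the lowest, median and highest of S2-32, against 721, 758 and 966.5 in S1-32. These ranges did not overlap, and the change of -0.71 was not called (adjusted p = 0.351). How many of all genes were separated in this way was not computed. Between S3-57 and S1-57 edgeR called 0 members and 0% of all genes in either direction, 0 members and 111 genes had an unadjusted p under 0.05, and DESeq2 called 0 members and 7 genes. A missed threshold does not show that the groups were alike.

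Among controls, 0 of the 10 genes were called higher and 2 lower in Control-78 against Control-10, where 2.36% and 1.59% of all genes were called, 6 members had an unadjusted p under 0.05 and DESeq2 called 3. With RLE factors the share that was higher went from 59.8% to 42.7% and the median over all genes from -0.06 to -0.20. NQO1 was lower by a log2 fold change of -2.65 (SE 0.73, adjusted p = 0.0263), which was -1.01 (0.505) without mouse 68, -2.55 (0.0548) without mouse 89 and -2.51 (0.0551) without mouse 90. It was also lost with only the compared groups (-2.70, 0.0885), all 78 libraries (-2.52, 0.0657) and the covariate (-2.09, 0.126). CBR3 was lower by -4.21 (SE 0.77, adjusted p = 0.000573), which was -1.66 (0.185) without mouse 68. Between these controls the stellate and fibroblast markers had median sums of 80.5 against 361 CPM, with 3 of 5 called lower, and the erythroid markers 409 against 164 CPM, with 1 of 3 called higher. Endothelial markers had 129.8 against 262.6 CPM, with ranges of 118.5 to 142.3 and 198.8 to 278.2 that did not overlap and 0 of 4 called. The part of these sets in the result was not tested.

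**Figure D5:**
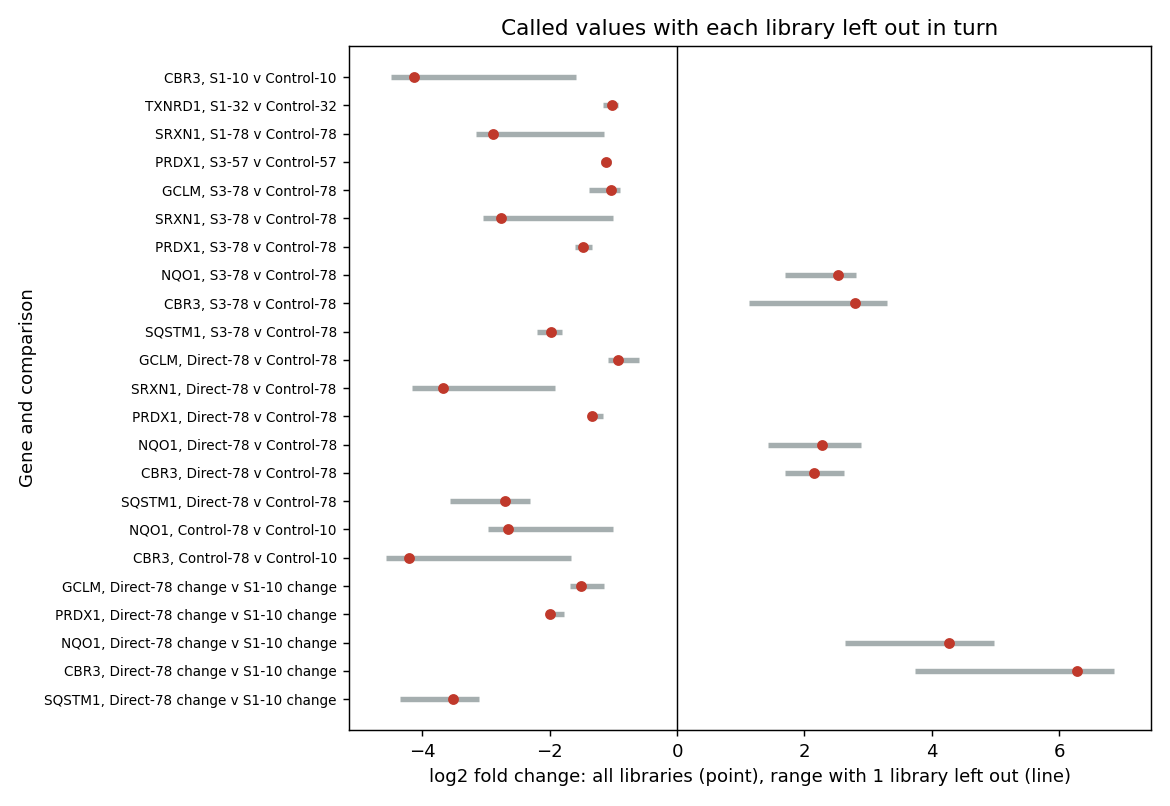
Log2 fold change of each called gene with all libraries (point) and its range over fits without 1 library (line), by comparison. CBR3 in S1-10 goes from -4.13 to -1.59 and SRXN1 in S1-78 from -2.89 to -1.14 when a single control mouse is left out.

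The regulators of NRF2 on the panel were NFE2L2, which encodes NRF2, KEAP1, the small MAF gene MAFF and the repressor BACH2, 4 of 10 listed. KEAP1 had 132, 144, 87.97 and 93.7 CPM in mice 55, 56, 59 and 60 of S3-78 and 52.4, 134 and 90.5 in mice 64, 65 and 66 of Direct-78, against 132, 225 and 246 at the lowest, median and highest of Control-78. Mice 56 and 65 lay inside the control range, and mouse 55 and the lowest control were both at 131.8 CPM. KEAP1 was called lower in S3-78, at -0.88 (SE 0.29, adjusted p = 0.0304), and in Direct-78, at -1.19 (SE 0.33, adjusted p = 0.00725). The S3-78 call was lost without S3-78 mouse 55 (-0.95, 0.0566), 59 (-0.77, 0.115) or 60 (-0.79, 0.0868) and without Control-78 mouse 87 (-0.84, 0.0530) or 90 (-0.83, 0.0566), and the Direct-78 call without mouse 64 (-0.91, 0.0910). With only the compared groups fitted both calls were lost (-0.89, 0.0662 and -1.12, 0.0714), and without the libraries with pancreas genes the Direct-78 call (-0.79, 0.0903). The covariate ended both, at -0.24 (0.691) and 0.11 (0.942), the latter turned in sign. NFE2L2 was called in 0 of 9 groups by edgeR, at 0.22 (adjusted p = 0.740) in S3-78 and -0.08 (0.893) in Direct-78, the latter 0.33 with RLE factors. It had 112, 119 and 135.4 CPM at the lowest, median and highest of S1-10, against 151.6, 185.9 and 196 in Control-10. Every S1-10 mouse thus lay below every control, which held for 5.80% of all genes, and NFE2L2 was not called there. In S2-78 it had 85.31, 162.4 and 214.5 CPM against 44.61, 65.22 and 128.9 in Control-78, and these ranges overlapped.

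BACH2 had 57.3, 86.3 and 235 CPM at the lowest, median and highest of S1-32 and 62.1, 88.4 and 242 in S2-32, against 164, 431 and 814 in Control-32. The ranges overlapped. It was called lower in S1-32, at -2.07 (adjusted p = 0.00345), and in S2-32, at -1.92 (0.0132), the latter lost without mouse 75 of Control-32 (-1.65, 0.0560) and with all 78 libraries (-1.97, 0.0655) and the former with the covariate (-1.44, 0.162). In S2-32 against Control-32, a comparison that also holds SOD3 and UGDH calls, stellate and fibroblast markers had median sums of 502 against 141.5 CPM, with 2 of 5 called higher. Macrophage markers had 662 against 582 CPM, with 1 of 5 called higher, and the part of both sets in these calls was not tested. MAFF was called lower in S1-10, at -3.19 (adjusted p = 0.0272), which was -0.89 (0.813) without mouse 68 and was lost in 6 of 10 fits without 1 library. It was also called lower in S1-32, at -2.25 (0.0389), lost in 6 of 12 such fits with a highest adjusted p of 0.123 without mouse 75. The covariate ended both MAFF calls (-2.71, 0.0829 and -1.46, 0.400). The S1-10 call was lost with only the compared groups (0.0616), and the S1-32 call with all 78 libraries (0.0683) and without the pancreas libraries (0.0917).

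Among genes for glutathione use, cystine import and conjugate export, 13 were tested of 21 listed. In S3-78 0 were called higher and 2 lower (GPX1 and GSTP1), and in Direct-78 0 and 3 (ABCC1, ABCC2 and GSTP1), where 5.85% and 7.48% (S3-78) and 5.71% and 18.7% (Direct-78) of all genes were called. The list medians were -0.32 and -0.80 beside 0.07 and -0.33 over all genes. In S1-32 2 were called higher (GPX4 and GSTA3) and 1 lower (GSTA2), against 11.9% and 17.2% of all genes, with a list median of 0.24 beside 0.05. GSTP1, a glutathione transferase, had 2450, 2297, 4789 and 4880 CPM in the S3-78 mice and 1820, 3621 and 2982 in the Direct-78 mice, against 11615, 22958 and 27438 in Control-78. Neither group overlapped the controls, and 7.85% of all genes lay wholly below them in S3-78 and 13.9% in Direct-78. The log2 fold change was -2.57 (SE 0.53, adjusted p = 0.000892) in S3-78 and -2.93 (SE 0.61, adjusted p = 0.000830) in Direct-78, and both calls were kept in every fit without 1 library. The total-count covariate ended both, at -1.71 (adjusted p = 0.0555) and -1.36 (0.398). GSTA2 was called lower in S1-10 (-2.89, adjusted p = 0.0266) and S1-32 (-2.15, 0.0276), with S1-10 at -1.84 (0.454) without mouse 68 and S1-32 at -2.01 (0.0543) without mouse 23 and -3.01 (0.00633) without mouse 19. These calls were lost in 4 of 10 and 4 of 12 fits without 1 library, and with the covariate (-2.56, 0.0618 and -1.37, 0.383). Mice carry near-identical copies of GSTP1 and of GSTA2, so the copies behind the probes are not known.

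Of 9 superoxide and peroxide enzymes tested, 3 were called higher and 2 lower in S1-32, 0 and 2 in S3-78, and 1 and 2 in Direct-78. Of all genes 11.9% and 17.2% were called in S1-32, 5.85% and 7.48% in S3-78 and 5.71% and 18.7% in Direct-78. The secreted superoxide dismutase SOD3 was called lower in S1-32 (-1.92, adjusted p = 0.00180) and S2-32 (-1.69, 0.0102) and higher in Direct-78 (1.43, 0.0336), and the last call was lost in 6 of the 9 fits that omit a library, where leaving out mouse 64 gave the highest adjusted p, 0.207. The mitochondrial enzyme SOD2 was called higher in S1-32 (1.46, 0.0315) and lower in S3-78 (-1.96, 0.0249). Those calls were lost in 5 of 12 and 3 of 10 such fits, with highest adjusted p of 0.0878 without mouse 75 and 0.0737 without mouse 59. The covariate ended the S1-32 and Direct-78 calls of SOD3 (-1.40, 0.0832 and -0.13, 0.959) and both calls of SOD2 (0.43, 0.755 and -0.66, 0.579). The SOD2 call in S1-32 was also lost with all 78 libraries (0.165) and without the pancreas libraries (0.0647), and the SOD3 call in Direct-78 with only the compared groups (0.0732) and without the pancreas libraries (0.122).

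Of 3 NADPH-supplying genes tested, 0 were called higher and 1 lower in each of S1-32, S3-57, S3-78 and Direct-78. Of all genes 11.9%, 2.86%, 5.85% and 5.71% were called higher there and 17.2%, 3.54%, 7.48% and 18.7% lower. In Direct-78 the gene was TALDO1. Malic enzyme ME1 was called lower in S1-32 (-1.10, adjusted p = 0.0450), S3-57 (-1.80, 0.0108) and S3-78 (-1.89, 0.00884). These calls were lost in 8 of 12, 2 of 11 and 1 of 10 fits without 1 library, with highest adjusted p of 0.0774 without mouse 24, 0.0607 without mouse 83 and 0.0529 without mouse 55, and the covariate ended the S1-32 call (-1.07, 0.250). The S1-32 call was also lost with all genes tested (0.0664) and with all 78 libraries (-1.15, 0.223). The S3-57 call was lost with only the compared groups (-1.78, 0.0631), all 78 libraries (-2.06, 0.113) and without the pancreas libraries (-1.44, 0.0734). In Direct-78 against S3-78, where 0.363% of all genes were called higher, ME1 was 1 of them, at 1.97 (0.0264), which was 1.03 (0.269) without mouse 65, 1.78 (0.0916) without mouse 55 and 1.93 (0.103) with the covariate. It was 1.97 (0.445) with only the compared groups and 1.70 (0.336) with all 78 libraries. ME1 was not called in S1-10 (573.5 to 1126 CPM, Control-10 1690 to 2076) or S1-78 (308.2 to 582.6, Control-78 762.4 to 1656). Neither of these ranges met that of its controls, and 5.80% of all genes lay wholly below in S1-10. That share was not computed for S1-78. In S1-32 the ranges overlapped (503.6 to 1456 CPM, Control-32 724.2 to 2044).

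Of 7 quinone, carbonyl, haem and iron genes tested, 0 were called higher and 3 lower in each of S1-10 and S1-32, where 1.09% and 4.40% (S1-10) and 11.9% and 17.2% (S1-32) of all genes were called. The carbonyl reductase CBR1 was called lower in S1-10 (-1.84, adjusted p = 0.0102; -1.38, 0.228 without mouse 68) and higher in S3-78 (1.38, 0.0249) and Direct-78 (1.63, 0.0108). In Direct-78 it had 51.4, 40.5 and 45.9 CPM, above the Control-78 range of 6.61 to 30.03, as did 5.03% of all genes. The S3-78 call was lost in 4 of 10 fits without 1 library, with the highest adjusted p without mouse 55 (0.84, 0.257), and the Direct-78 call without mouse 64 (1.54, 0.0522). With thinned counts the S3-78 call was lost (1.35, 0.0907), and the covariate ended it (0.84, 0.325) and the Direct-78 call (0.49, 0.796). With only the compared groups fitted all 3 CBR1 calls against controls were lost (0.0518, 0.0983 and 0.0587 in that order), and the S3-78 call also with all 78 libraries (1.05, 0.180) and without the pancreas libraries (0.86, 0.266). In S2-32 against S1-32, where 2.13% of all genes were called higher, CBR1 was 1 of 2 list genes called higher (1.36, adjusted p = 0.0446). This call was lost in 10 of 12 fits without 1 library, with a highest adjusted p of 0.177 without mouse 41 (1.10). It was also lost with all genes tested, with all 78 libraries, with the covariate and without the pancreas libraries. UGDH, which makes UDP-glucuronic acid, was called lower in S1-10 (-3.35, 0.00649; -1.66, 0.443 without mouse 68), S1-32 (-2.88, 0.00277; -1.55, 0.194 with the covariate) and S2-32 (-2.36, 0.0215). The S2-32 call was lost without mouse 37 (-2.22, 0.0505), 76 (-2.14, 0.0558) or 78 (-2.27, 0.0512). The aldehyde reductase AKR7A5 was called lower in S1-32 (-1.27, 0.00177; -1.04, 0.0696 with the covariate), S2-78 (-1.45, 0.0101) and S3-78 (-1.17, 0.0132; 0.0854 without mouse 59). With only the compared groups fitted the S2-78 and S3-78 calls were lost (0.216 and 0.0884), and with all 78 libraries the S2-78 call (-1.31, 0.0714). Over the 9 alternatives other than the omission of each library, the AKR7A5 change lay between -1.68 and -1.25 in S2-78. In S3-78 it lay between -1.60 and -1.01. In S2-78 against Control-78 the stellate and fibroblast markers had median sums of 400.1 against 80.5 CPM, with 2 of 5 called higher, and 3 of 8 exocrine pancreas genes were called higher (medians 30.03 against 19.5 CPM, CEL the most abundant). The pancreas sum was 15687 CPM in mouse 47 of S2-78, against 30.02, 7.007 and 30.04 CPM in mice 43, 44 and 45. The part of these genes in the result was not tested.

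CBR3 was called in 3 of 9 groups, and among the members called that often it had the smallest adjusted p, that of S1-10, which was 0.454 without mouse 68. PRDX1, also called in 3, kept its calls in every fit without 1 library. Among the genes whose mean log2 CPM over the 13 groups ran most like CBR3 were S100A11 (Pearson r = 0.818), LEF1 (0.803), DCTD (0.768) and IGFBP3 (0.765), of 2204 compared. The points are 13 group means from the same libraries, and the CBR3 mean of Control-10 rests largely on mouse 68.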

How the data were processed

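TempO-Seq libraries of mouse liver were grouped by weeks of DCA and week of collection. The authors deposited a count table (raw reads per probed gene, 78 libraries, 2755 genes) and normalized and filtered tables of signal made by the authors in Partek Flow 10.0.22.0524. The labels name Bowtie, DESeq2 and mm10. In the signal tables each value was checked to be the count plus 1 over 1 factor per library. The counts of 68 libraries and 2205 filtered genes were fitted with edgeR 4.0.16 in R 4.3.3 (TMM, quasi-likelihood, 1 model of 13 groups, 2-sided, Benjamini-Hochberg within a comparison). Total counts ran from 541245 to 4285848, and a count of 0 was bounded by 3 counts (95%, counting error only). Python 3.11.15 made tables and figures. The pipeline was tested on simulated data.

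All 10 members are named. All regulators on the panel are named, and from the other lists genes called in at least 2 of 9 comparisons with controls, at most 8, and the 5 genes most like the member called most often, of which 1 is not reported here. Members and lists were chosen with earlier results of these data known. GPX1, GPX4, GSTA3, ABCC1, ABCC2 and TALDO1 lie outside this rule and were named after their values were seen.

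Alternatives were RLE factors, all genes with at least 1 count, DESeq2 1.42.0, the compared groups alone, all 78 libraries, log2 total count as a covariate, the adjusted p alone, omission of 9 libraries with pancreas genes, and omission of each library. Thinning to 541245 counts was chosen after seeing the data. Gene coordinates were read from GENCODE vM21 (GRCm38). Promoters are from RefSeq.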

Additional observations from a re-analysis of the deposited data

Results flagged for a closer look

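In groups of 4 to 10 mice, a mouse was singled out when its gap to the nearest other value was large beside the range of the group (Dixon's limit). It was met in 15 of 120 sets of gene and group, 5 of them by mouse 68. Chance gives it in about 1 in 20 groups of independent, normally distributed values, which these CPM were not shown to be, so the 15 are not read against that rate. Mouse 68 of Control-10 was lowest for GCLM (131.6 CPM) and GSR (336.3 CPM) and highest for SRXN1 (433 CPM), NQO1 (153.4 CPM) and CBR3 (269.6 CPM). In Control-32 the highest values were GCLC in mouse 74 (135.8 CPM), SRXN1 in mouse 76 (660.7 CPM) and NQO1 in mouse 73 (39.81 CPM). Mouse 90 of Control-78 was highest for SRXN1 (2911 CPM), and mouse 84 of Control-57 for HMOX1 (62.4 CPM). In treated groups the highest values were GCLM in mouse 56 of S3-78 (220 CPM), CBR3 in mouse 59 of S3-78 (87.97 CPM), CBR3 in mouse 54 of S3-57 (24.78 CPM), NQO1 in mouse 31 of S1-78 (52.72 CPM) and HMOX1 in mouse 13 of S1-10 (38.06 CPM).

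The Direct-78 and S1-10 changes differed by an interaction test in edgeR for 5 genes. On the log2 scale the difference was -1.51 for GCLM (adjusted p = 0.0103), -1.99 for PRDX1 (0.00135), 4.27 for NQO1 (0.00209), 6.28 for CBR3 (6.14e-05) and -3.52 for SQSTM1 (0.000258). Without mouse 68 it was 2.63 for NQO1 (0.0604) and 3.74 for CBR3 (0.00729). GCLM was not called with RLE factors (0.0506) or without mouse 65 (0.0574), and with the total-count covariate 0 of the 5 were called.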

How the results depend on the processing

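Counts of called members moved by more than 1.5 times as follows, and the cause was not tested. With DESeq2 2 were called in S1-10, 2 in S1-32 and 1 in S2-78. With only the compared groups fitted, 3 were called in S1-10, 2 in S1-32, 0 in S1-78, 2 in Direct-78, 2 in S2-32 against S1-32 and 1 in Control-78 against Control-10. With all 78 libraries 1 was called in S2-78, 0 in S3-57 and 1 in Control-78 against Control-10. With log2 total count as a covariate 0 were called in S1-32, 0 in S3-57, 1 in S3-78, 0 in Direct-78, 1 in Control-78 against Control-10 and 0 for the difference between the Direct-78 and S1-10 changes. Without libraries with pancreas genes 3 were called in S3-78 and 2 in Direct-78. The covariate reversed SQSTM1 (0.01), KEAP1 (0.11) and SOD3 (-0.13) in Direct-78. Without 1 library at a time, the count ran from 0 to 1 in S1-10, 1 to 4 in S1-32, 0 to 1 in S1-78, 0 to 3 in S2-32, 1 to 2 in S3-57, 3 to 6 in S3-78, 2 to 6 in Direct-78, 0 to 2 in Control-78 against Control-10 and 4 to 5 for the difference between changes, and it was 0 to 0 in S1-57, S2-78, S2-32 against S1-32, S3-57 against S1-57 and Direct-78 against S3-78. Of 60 called values of single genes, the calls lost were 2 with RLE factors, 3 with all genes, 1 with DESeq2, 20 with only the compared groups, 11 with all 78 libraries, 44 with the covariate besides the 3 it reversed, 0 with the adjusted p alone, 14 without the pancreas libraries and 3 after thinning (GCLM and CBR3 in Direct-78, CBR1 in S3-78), which was chosen after seeing the data. In Direct-78 3 counts stand for 2.97 to 4.05 CPM, and in the 4 groups whose totals do not overlap those of their controls depth and treatment cannot be told apart.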
